A study of Mus musculus with 6 samples.

Results

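The genes described here drive the cell cycle and copy DNA, and they were measured in the lungs of ob/ob mice given leptin or saline. The 43 genes were listed by name and matched to probe sets of the Affymetrix Mouse 430A array whose platform annotation gives a single symbol. This gave 84 probe sets of 42 genes, out of 22626 probe sets and 12393 named genes, and Ccnb1 had no such probe set. Total RNA came from the lung of 1 female B6.V-Lepob/J mouse an array, aged 1 month, with 3 arrays for leptin and 3 for saline. Both groups are ob/ob, a genotype without working leptin, and no lean mouse was among them. The labels state no dose, route or duration. They do not tell how the animals were kept or paired, so p-values measure the spread between these samples.

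A dividing cell copies its DNA and then parts the copies. The Mcm proteins form a ring that opens the helix, Pcna is the sliding clamp of the polymerases, and Fen1 removes the flaps between fragments of the lagging strand. D-type and E-type cyclins start this programme with their kinases and with E2F factors, whereas B-type cyclins, Cdk1, the Aurora and Polo kinases and the spindle checkpoint act in mitosis. In a lung past its main growth few cells divide, so transcripts of the mitotic genes are scarce in whole tissue. In RNA of a whole lung, fewer cells of a type and less RNA per cell cannot be told apart.

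Early and late cell cycle genes are known for different promoter elements: E2F factors bind sequences such as TTCCCGC, NF-Y binds CCAAT boxes, and the cell cycle homology region of late genes can hold TTTGAA. The 250 bases before the start are shown for Top2a, a mitosis gene, and for Mcm7 and Fen1, which copy DNA, because these genes had the smallest p-values among the members. The sequences are RefSeq's (GRCm38.p6), 5′ to 3′ along the gene, with each listed start of a gene on its own line. Capitals mark matches on either strand to any of these elements, and no matches overlapped.
Top2a, chr11:99024190-99024439, minus strand: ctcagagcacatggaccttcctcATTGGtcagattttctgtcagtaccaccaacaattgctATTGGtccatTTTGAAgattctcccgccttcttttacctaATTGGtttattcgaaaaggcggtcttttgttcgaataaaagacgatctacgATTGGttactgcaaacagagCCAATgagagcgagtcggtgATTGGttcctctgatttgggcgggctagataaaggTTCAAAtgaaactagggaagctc
Mcm7, chr5:138171267-138171516, minus strand: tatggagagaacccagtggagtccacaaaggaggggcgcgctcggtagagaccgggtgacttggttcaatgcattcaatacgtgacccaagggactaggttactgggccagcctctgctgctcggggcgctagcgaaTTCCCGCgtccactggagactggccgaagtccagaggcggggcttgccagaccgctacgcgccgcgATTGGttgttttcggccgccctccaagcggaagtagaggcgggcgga
Mcm7, chr5:138171884-138172133, minus strand: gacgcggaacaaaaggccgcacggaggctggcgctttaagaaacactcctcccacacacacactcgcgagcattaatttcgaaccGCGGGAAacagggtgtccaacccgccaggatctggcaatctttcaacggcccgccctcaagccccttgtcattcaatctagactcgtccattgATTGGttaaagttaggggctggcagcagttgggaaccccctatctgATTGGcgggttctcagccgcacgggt
Fen1, chr19:10203922-10204171, minus strand: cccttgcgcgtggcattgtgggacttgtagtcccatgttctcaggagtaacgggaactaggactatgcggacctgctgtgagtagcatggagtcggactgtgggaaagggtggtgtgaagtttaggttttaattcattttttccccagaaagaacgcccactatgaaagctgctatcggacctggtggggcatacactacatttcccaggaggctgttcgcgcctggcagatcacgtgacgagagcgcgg
Fen1, chr19:10204394-10204643, minus strand: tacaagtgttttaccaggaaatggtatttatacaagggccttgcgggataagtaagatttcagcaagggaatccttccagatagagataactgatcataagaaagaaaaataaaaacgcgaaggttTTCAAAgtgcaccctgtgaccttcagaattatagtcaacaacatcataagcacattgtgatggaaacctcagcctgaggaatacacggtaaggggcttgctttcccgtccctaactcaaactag

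The Top2a window held 6 CCAAT and 2 TTTGAA matches, the Mcm7 windows held 1 and 2 CCAAT matches and 1 TTCCCGC each, and 1 of the Fen1 windows held 1 TTTGAA. Promoters were found for 35 of the 43 genes. TTTGAA stood in 6 of 14 (42.9%) promoters of mitosis members and in 2 of 9 (22.2%) of Mcm, Pcna and Fen1 genes, against 16.0% of all 32851 promoters. CCAAT stood in 11 of 14 (78.6%) and 7 of 9 (77.8%), against 33.8% of all. TTCCCGC stood in 0 of 14 and in 2 of 9 (22.2%), both of Mcm7, against 3.82% of all. These matches describe the letters in the windows alone.

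Saline replicate 1 did not resemble the rest, so the main results are given with and without it. Its log2 values correlated at 0.438 to 0.447 with the others, which correlated among themselves at 0.973 to 0.978 (Pearson, across probe sets). Its 10th percentile of intensity was 57, against 16.3 to 19.2. For the lung label, 27 tested markers of alveolar type II, alveolar type I, club and endothelial cells were read. All had passed a filter on dim probe sets, so that none was at 0 does not test the label. Their lowest value on the other 5 arrays was 722.7. On saline replicate 1 the type II markers summed to 14876 (elsewhere 98976 to 112924), type I markers to 16375 (elsewhere 51064 to 58205) and endothelial markers to 6572 (elsewhere 22464 to 25263). Club markers there summed to 92996 (elsewhere 80346 to 92956), and macrophage markers to 99891 (elsewhere 8211 to 10420).

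Without saline replicate 1, no cell cycle gene passed an adjusted p of 0.05, while Fen1, Mcm7, Top2a, Ccnd2, Ccnd1 and Birc5 each had a probe set that read higher with leptin at an unadjusted p under 0.05. The filter on dim probe sets, which drops the lowest 30%, left 53 probe sets of 31 members. Of these, 0 passed the adjusted threshold in limma, against 0.0442% of the 15838 probe sets tested. At the unadjusted p, 6 of 53 were higher and 0 lower (11.3%), against 2.61% of all for higher, 1.98% for lower and 4.6% for either. A block on the replicate number leaves leptin replicate 1 without a saline partner, so its changes rest on replicates 2 and 3 of both groups. With that block 6 of 53 were at an unadjusted p under 0.05 too, against 7.21% of all. A probe set of Mcm2 (0.67 ± 0.23) was then among them in place of that of Birc5. The members and the setting apart of saline replicate 1 were chosen with earlier results of these data known. These shares and the counts below are therefore descriptive.

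Directions were counted next. With 1 probe set a gene, the brightest, 20 of 31 members were higher with leptin (64.5%), against 48.3% of all genes tested. Over all tested probe sets of the members it was 36 of 53 (67.9%), against 50.3%. Leptin and saline values did not overlap for 17 of 53 (32.1%), against 19.6% of all. Of these 17, 14 were higher and 3, of Cdk4, Mcm4 and Rrm1, were lower, against 9.92% and 9.66% of all. The rule stated by the series (1.5-fold, p under 0.05 and, on 5 arrays, 4 of 6 pairs) was met by 3 member probe sets, of Fen1, Mcm7 and Top2a, all higher. That rule was met by 0.259% of all tested probe sets upward and 0.234% downward. A probe set may pass the filter through the group in which it is high, so these counts describe what was tested and not all members.

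**Figure D1:**
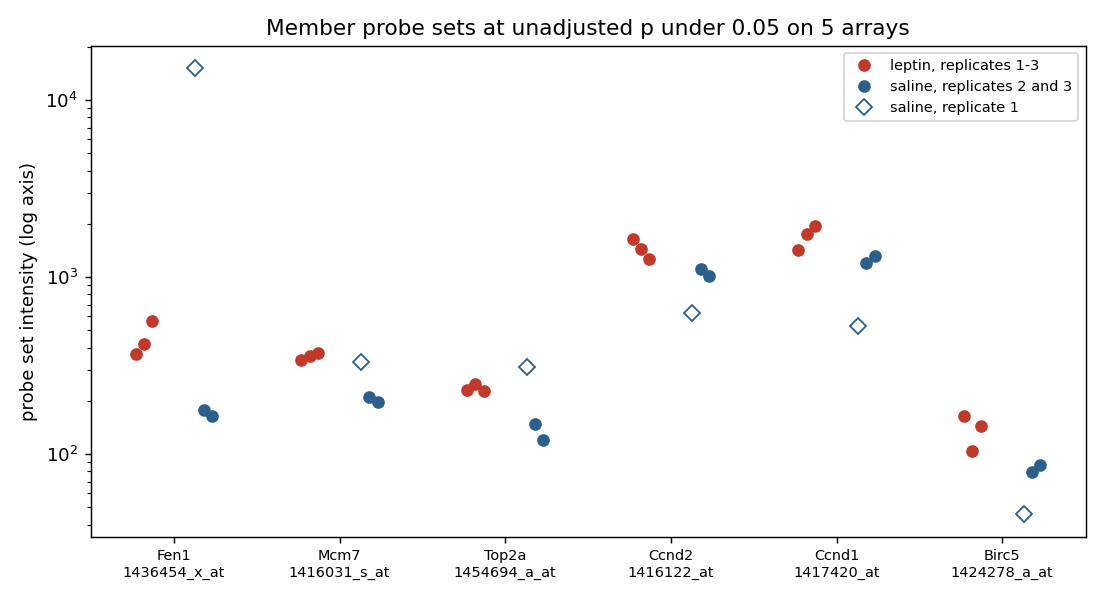
Intensity (log axis) of the 6 member probe sets at an unadjusted p under 0.05 on 5 arrays, 1 point an array, leptin in red and saline in blue. All 3 leptin points lie above saline replicates 2 and 3 in each, and saline replicate 1 (open diamond) lies above the leptin points for Fen1 and Top2a and below them for Mcm7, Ccnd2, Ccnd1 and Birc5.

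Among the genes that copy DNA, Fen1 (Entrez Gene 14156) gave the smallest p of all members on 1 of its 2 probe sets and no such difference on the other. Probe set 1436454_x_at read 369.8, 420.9 and 563.8 on leptin replicates 1 to 3, against 177.8 and 164.4 on saline replicates 2 and 3. Every leptin value lay above both saline values. The log2 change was 1.27 ± 0.20 (SE, 3 against 2 arrays), with an unadjusted limma p of 5.91e-05 and an adjusted p of 0.0956, which misses the threshold. Saline replicate 1 gave 15158 here, 44.7 times the mean of the other arrays. Including it put the change at -0.83 ± 1.68 (limma adjusted p = 0.804). Probe set 1421731_a_at read 136.2, 155.5 and 120.1 with leptin, against 185.6 and 131.8 for saline replicates 2 and 3 and 102.8 for saline replicate 1. The groups overlapped, and the change was -0.17 ± 0.24 on 5 arrays and 0 ± 0.33 on 6. The 95% intervals on 5 arrays, 0.83 to 1.71 for the first probe set and -0.69 to 0.35 for the second, do not meet. In Affymetrix names the ending _x_at marks probes that may also match unrelated transcripts, and which probe set follows Fen1 was not tested.

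**Figure D2:**
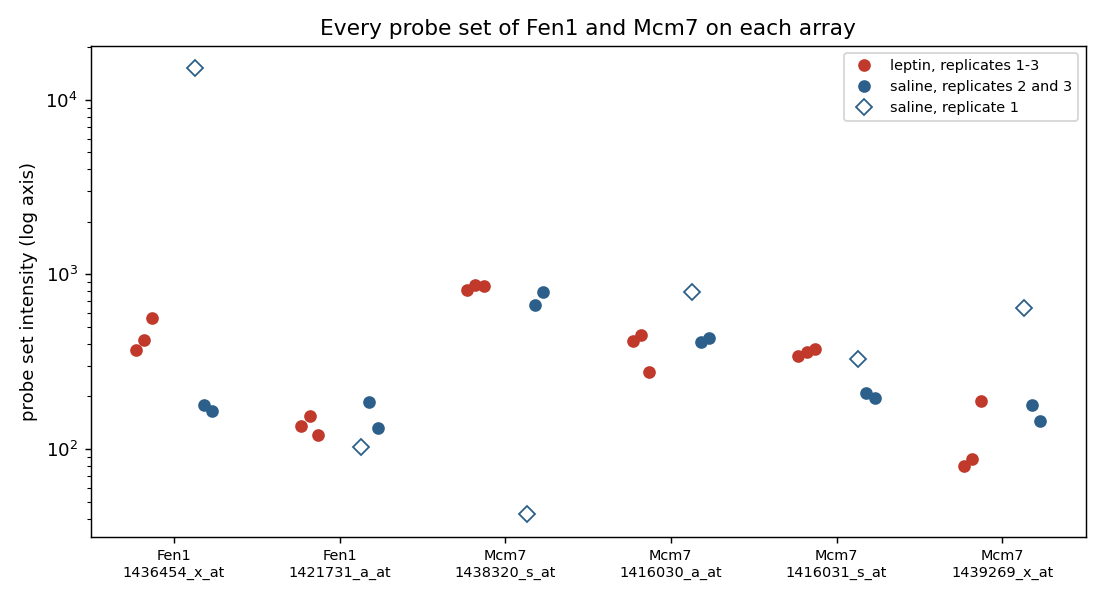
Intensity (log axis) of every tested probe set of Fen1 and Mcm7 on each array, leptin in red, saline in blue, saline replicate 1 as an open diamond. Fen1 1436454_x_at and Mcm7 1416031_s_at and 1438320_s_at separate leptin from saline replicates 2 and 3, and the other 3 probe sets overlap.

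Mcm7 (Entrez Gene 17220), a subunit of the helicase ring, had 4 tested probe sets that pointed both ways. Probe set 1416031_s_at read 341.3, 360.7 and 372.9 with leptin, against 209.4 and 195.9 for saline replicates 2 and 3 and 329.6 for saline replicate 1. All leptin values were above all saline values, by 0.76 ± 0.16 on 5 arrays (limma adjusted p = 0.337) and 0.54 ± 0.29 on 6. The brightest Mcm7 probe set, 1438320_s_at, read 812.6, 872.0 and 863.4 with leptin, against 671.9 and 789.2 with saline. It too was higher on each leptin array, by 0.22 ± 0.14 with a 95% interval of -0.10 to 0.53. On saline replicate 1 it was the lowest, at 42.3. The others, 1416030_a_at and 1439269_x_at, gave -0.16 ± 0.21 and -0.46 ± 0.32, with overlapping groups.

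The rest of the Mcm ring and Pcna had intervals that include 0 with their brightest probe sets. Mcm5 was at 0.53 ± 0.30, Mcm2 at 0.22 ± 0.19, Mcm3 at 0.19 ± 0.24, Mcm6 at -0.07 ± 0.19 and Mcm4 at -0.21 ± 0.17, log2 changes on 5 arrays. The 4 tested Mcm3 probe sets were all at or above 0, from 0.01 to 0.37, whereas the 2 of Mcm4 had opposite signs. Pcna read 2377, 2534 and 2234 with leptin, against 2625 and 2217 for saline replicates 2 and 3. Its groups overlapped, and its change of -0.02 ± 0.13 had a 95% interval of -0.31 to 0.27, which leaves out a change of 1.5-fold. Saline replicate 1 gave 305.6 for Pcna, and with it the change was 0.94 ± 0.80. Prim1, the primase subunit that starts new strands, read 345.2, 230.6 and 292.6 with leptin, against 288.6 and 295.2, and its groups overlapped (-0.03 ± 0.19). With saline replicate 1, at 616.9, the Prim1 change was -0.37 ± 0.37. Another Prim1 probe set, 1449061_a_at, was too dim to test. It read 15.5, 5.9 and 37.2 with leptin, against 60.6 and 41.3, and 266.6 on saline replicate 1. Without the filter its change was -0.87 ± 0.34 on 5 arrays. Cdc6, which loads the Mcm ring, and Cdc45, which activates it, read 10.9 to 100.9 on the 5 arrays and were too dim to test.

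Ribonucleotide reductase makes the building blocks of DNA, and its subunits gave small values of either sign. The dimmer Rrm1 probe set (large subunit), 1415878_at, read 229.4, 244.6 and 287.6 with leptin, against 296.7 and 368.8 for saline replicates 2 and 3. All leptin values were lower there (-0.36 ± 0.18, limma adjusted p = 0.9997), but saline replicate 1, at 153.3, was lower still, and with it the change was -0.02 ± 0.37. The brighter Rrm1 probe set was at 0.08 ± 0.18. The brighter Rrm2 probe set (small subunit), 1434437_x_at, read 189.4, 220.4 and 199.5 with leptin, against 173.5 and 164.5, without overlap (0.24 ± 0.19). The other, 1416120_at, read 196.1, 151.4 and 113.8, against 176.7 and 50.8, and its change of 0.52 ± 0.39 was -0.20 without saline replicate 3. On saline replicate 1 the Rrm2 probe sets read 1040 and 386.1, above all other arrays, and with it the changes were -0.59 ± 0.70 and -0.07 ± 0.65. Tyms, thymidylate synthase, read 8.2 to 71.3 over its 3 probe sets and was not tested.

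Of the mitosis members, Top2a and Birc5 had the smallest p-values. Top2a (Entrez Gene 21973), the topoisomerase that untangles sister chromatids, read 229.9, 249.2 and 228.5 with leptin, against 148.7 and 119.4 for saline replicates 2 and 3. The leptin values were all higher, by 0.73 ± 0.20 (limma adjusted p = 0.706). Saline replicate 1, at 311.1, exceeded every leptin value, and with it the change was 0.36 ± 0.39. Birc5 (Entrez Gene 11799), survivin of the chromosomal passenger complex, read 164.5, 104.4 and 144.7 with leptin, against 79.5 and 86.8. Its groups did not overlap, with a change of 0.59 ± 0.26 (limma adjusted p = 0.9997). The replicate block takes nothing from leptin replicate 1, the highest Birc5 value. With that block the change was 0.47 ± 0.25 (limma unadjusted p = 0.103, adjusted p = 0.721), past neither level. On saline replicate 1 Birc5 read 45.7, the lowest of all, and on 6 arrays it lay below the filter.

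The other 9 tested mitosis members had intervals that include 0. Ccnb2, a B-type cyclin, was at 0.77 ± 0.42, with saline replicates 2 and 3 far apart at 181.7 and 38.6. Cdc20, the activator of the anaphase-promoting complex, was at 0.34 ± 0.23 and Mad2l1 of the spindle checkpoint at 0.28 ± 0.28. The kinases Aurkb, Plk1 and Aurka were at 0.20 ± 0.25, 0.08 ± 0.24 and 0.05 ± 0.24. Mki67, the Ki-67 antigen of cycling cells, read 125.3, 209.9 and 137.4 with leptin, against 201.4 and 118.5, and its groups overlapped (-0.01 ± 0.28). Nusap1, a spindle protein, was at -0.06 ± 0.23 and Ccna2, cyclin A, at -0.28 ± 0.22. The 95% interval of Mki67 was -0.63 to 0.61, so a change of 1.5-fold in either direction lies inside it.

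Bub1, Bub1b, Cdk1, Kif11 and Kif20a, which are checkpoint kinases, the kinase of mitotic entry and spindle motors, had no probe set above the filter. Neither had the checkpoint kinase Chek1, at 2.7 to 93.9 over 4 probe sets. In all, 31 member probe sets were not tested, with values from 1.9 to 146.7 on the 5 arrays, and 11 members had none tested. Without the filter the log2 changes of these 31 ran from -0.87 to 0.71 on 5 arrays.

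Of the genes that start the cycle, cyclins D1 and D2 were bright and read higher with leptin. Ccnd2 (Entrez Gene 12444) read 1651, 1449 and 1259 on the leptin arrays with 1416122_at, against 1117 and 1009 for saline replicates 2 and 3 and 624.3 for saline replicate 1. No saline value reached the leptin values, and the change was 0.44 ± 0.15 on 5 arrays (limma adjusted p = 0.9997) and 0.68 ± 0.31 on 6. The 5 tested Ccnd2 probe sets were all above 0 on 5 arrays, from 0.13 to 0.44, and 2 of them were below 0 on 6, at -0.11 and -0.42. Ccnd1 (Entrez Gene 12443) read 1429, 1757 and 1937 on the leptin arrays with 1417420_at, against 1210 and 1313 and, for saline replicate 1, 532.7. These groups did not overlap either, at 0.42 ± 0.15 on 5 arrays (limma adjusted p = 0.9997) and 0.82 ± 0.41 on 6. The other Ccnd1 probe sets were at 0.18 ± 0.12 and 0.15 ± 0.15. Ccnd3 was at 0.03 ± 0.17, the kinases Cdk4 and Cdk2 at -0.06 ± 0.14 and -0.04 ± 0.19, and the transcription factor E2f1 at 0.12 ± 0.24, while Ccne1 and Ccne2 (cyclin E) were too dim to test.

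The CDK inhibitors, which hold the cycle back, had overlapping groups. Cdkn1b read 467.6, 450.4 and 571.9 with leptin, against 402.7 and 452.8 (0.20 ± 0.16), and 346.5 on saline replicate 1 (0.30 ± 0.25 with it). Cdkn1a, a p53 target, read 1575, 2017 and 1381 with its bright probe set, against 1311 and 2481 (-0.14 ± 0.24), and 1044 on saline replicate 1 (0.12 ± 0.40 with it). With its dim probe set it read 103.1, 144.3 and 85.0, against 38.5 and 145.9 (0.37 ± 0.41), with 97.9 on saline replicate 1. Saline replicates 2 and 3 thus lay farther apart than the leptin arrays, and without saline replicate 2 the change was -0.36. Cdkn1c was at -0.12 ± 0.16.

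**Figure D3:**
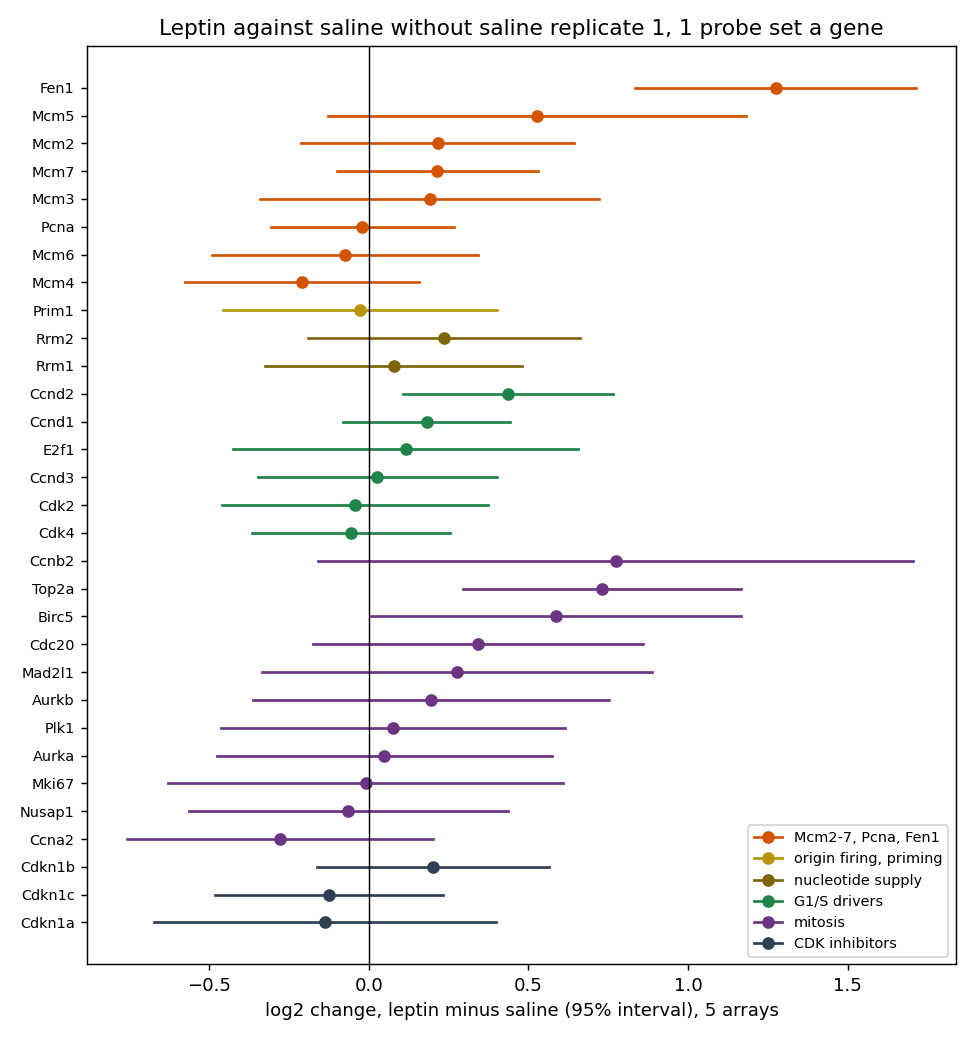
Log2 change, leptin minus saline (points), with its 95% interval (lines) on 5 arrays for the 31 tested members, with the brightest probe set of each gene, coloured by role. The intervals of Fen1, Top2a, Ccnd2 and Birc5 lie above 0 before adjustment, and the other 27 include 0.

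The replication and mitosis genes were then set side by side. On 5 arrays both had a median log2 change of 0.20, over 8 genes (Mcm2 to Mcm7, Pcna, Fen1; 5 higher, 3 lower) and over 11 mitosis members (8 higher, 3 lower), against -0.01 over all 9365 genes tested. Fen1 stood among the higher replication genes with 1436454_x_at (1.27), whereas its other probe set was at -0.17. With the mean of each gene's tested probe sets the medians on 5 arrays were 0.15 for replication and 0.20 for mitosis. With the brightest probe sets, the median deviation from each gene's mean for replication was 0.02, 0.16 and 0 with leptin. It was -0.12 and -0.06 for saline replicates 2 and 3. For mitosis it was 0.17, 0.04 and 0 with leptin, compared with 0.06 and -0.30 for saline replicates 2 and 3. The leptin arrays were thus above both saline arrays for replication and overlapped them for mitosis, where saline replicate 3 alone was low. The mitosis median was 0 without saline replicate 3 and 0.35 without saline replicate 2, and the replication median was 0.09 without saline replicate 2.

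Saline replicate 1 also changes which probe set of a gene is the brightest, so both choices were set apart. For 4 of 30 members, Ccnd2, Cdc20, Mcm2 and Mcm3, another probe set stood for the gene on 6 arrays, for Mcm3 one that read 1340 and for Cdc20 one that read 2901 on saline replicate 1. With the probe sets of the 5-array fit kept, the medians on 6 arrays were 0.42 for replication (5 of 8 higher) and -0.35 for mitosis (3 of 11 higher), against 0.07 over all genes. With the probe sets brightest on 6 arrays they were 0.02 and -0.39 (2 of 10 higher), against 0.02. The mitosis median was thus below 0 on 6 arrays with either choice, and the replication median depended on the choice. With the probe sets kept, Mcm3 was at 0.63 in place of -1.14 on 6 arrays, and Cdc20 at -0.01 in place of -1.06. On 5 arrays the probe sets brightest on 6 gave 0.11 and 0.14.

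With the probe sets of the 5-array fit, saline replicate 1 deviated by -1.08 in the replication median and by 1.23 in the mitosis median, against -0.22 over all genes. Array weights were 0.0257 for saline replicate 1 and 1.64 to 2.98 for the others. With these weights and the probe sets brightest on 6 arrays, the medians were 0.13 for replication and 0.12 for mitosis.

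On 6 arrays 0 of 51 member probe sets passed the adjusted threshold in limma, against 0% of all, and 0 reached an unadjusted p under 0.05, against 0.385% (0.202% higher, 0.183% lower). The groups did not overlap for 8 of 51 (15.7%), against 9.1% of all. Of the 8, 7 were higher, of Ccnd1, Ccnd2, Mcm2, Mcm3 and Mcm7, and 1, of Cdk4, was lower, against 5% and 4.1% of all. The series' rule was met by 0 members, against 0.107% of all upward and 0.0947% downward. With the probe sets brightest on 6 arrays 12 of 30 members were higher (40%), against 51% of genes, and with those of the 5-array fit 15 of 31 (48.4%), against 54.8%. Of their tested probe sets 23 of 51 were higher (45.1%), against 51.3%.

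**Figure D4:**
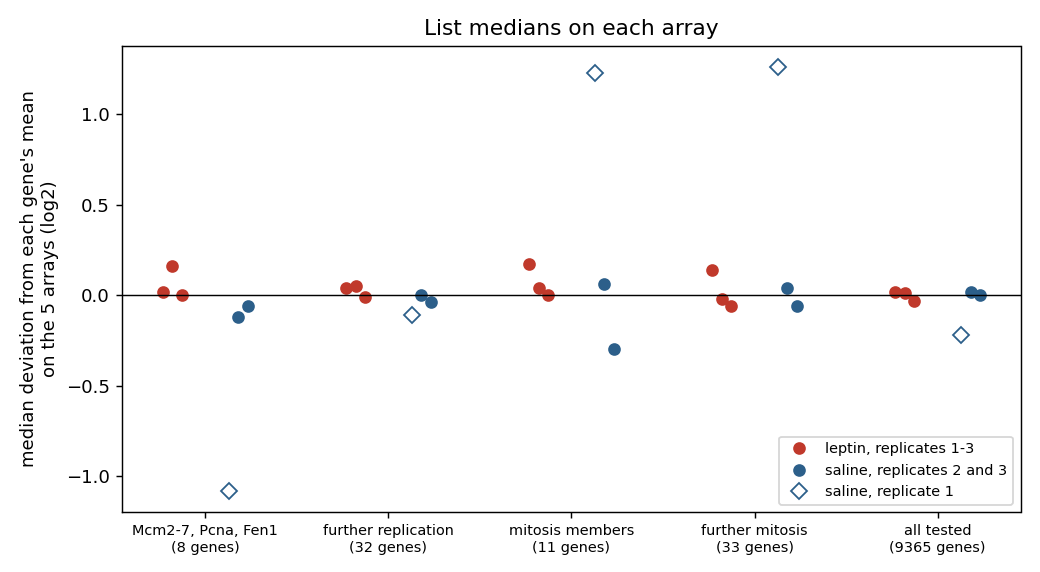
Median over each gene list of the log2 deviation from a gene's mean on the 5 arrays, 1 point an array, with saline replicate 1 as an open diamond. Saline replicate 1 lies at -1.08 for Mcm2 to Mcm7, Pcna and Fen1 and at 1.23 for the mitosis members, while the other arrays lie between -0.30 and 0.17 in all 5 lists.

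The sign of the deviation on saline replicate 1 went with the brightness of the probe set. Of the 31 member probe sets with a mean under 100 on the other arrays, 30 were higher on it, with a median ratio of 3.47. Between 100 and 300 it was 24 of 34 (2.43), between 300 and 1000 it was 4 of 12 (0.7), and above 1000 it was 1 of 7 (0.348). Over all probe sets of the series 91.6%, 67%, 43.7% and 18.3% were higher in these ranges, with median ratios of 5.51, 1.82, 0.824 and 0.349. The tested mitosis probe sets all had means between 112.2 and 245.2. Of these, 11 of 13 were higher on saline replicate 1, against 67% of all probe sets between 100 and 300. The tested probe sets of Mcm, Pcna and Fen1 genes ranged from 106.6 to 2397 and 9 of 17 were higher. Over these ranges the share of all probe sets fell from 67% to 18.3%.

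**Figure D5:**
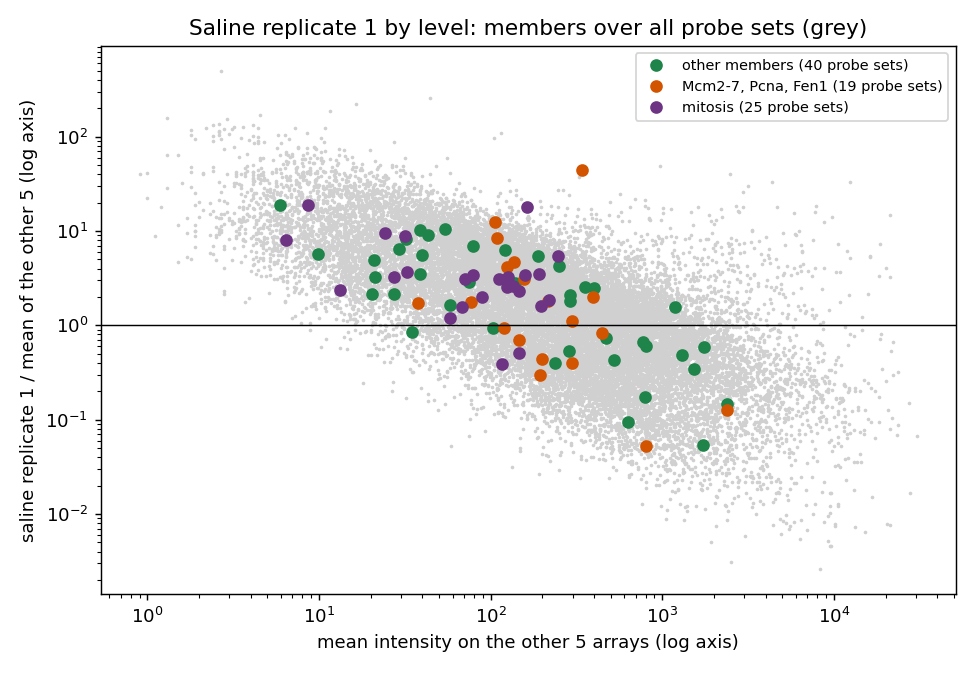
Ratio of saline replicate 1 to the mean of the other 5 arrays against that mean (log axes), for member probe sets in colour and all probe sets in grey. Most dim members lie above 1 and most bright ones below it, and Fen1 1436454_x_at, at 44.7, is the highest member.

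Where a member had several tested probe sets, their signs differed for 6 of 13 genes on 5 arrays (46.2%), namely Ccna2, Cdkn1a, Fen1, Mcm4, Mcm7 and Rrm1, against 53.5% of all 3431 such genes. Disagreement between probe sets was thus about as frequent among members as on the whole array.

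Further genes of these pathways were read from wider lists, and on 5 arrays 0 passed the adjusted threshold in limma. At an unadjusted p under 0.05 were 1 of 32 replication genes (Tipin), 1 of 12 nucleotide genes (Samhd1), 2 of 33 mitosis genes (Smc4 and Smc2), 1 of 19 genes of cycle entry (Mycn) and 0 of 21 p53 and checkpoint genes, against 4.28% of all genes. The counts of higher genes on 5 arrays below stand against 48.3% of all genes. Of 32 tested replication genes, 22 were higher (median 0.07). Tipin of the fork protection complex read 215.0, 281.7 and 317.9 with leptin, against 354.6 and 487.7, all lower (-0.59 ± 0.21, limma adjusted p = 0.9997), whereas its partner Timeless was at 0.43 ± 0.20. Of 33 tested mitosis genes, 18 were higher (median 0.09), with the condensin subunits Smc4 at 0.31 ± 0.14 and Smc2 at 0.42 ± 0.19. On 6 arrays, with the probe sets brightest there, the median of the mitosis list was -0.33, with 6 of 34 higher. The replication list was at 0.04 there, with 18 of 31 higher, against 0.02 and 51% over all genes. On 5 arrays 7 of 12 nucleotide genes were higher (median 0.02). Samhd1, which degrades deoxynucleotides, was at 0.37 ± 0.14 and Cad of pyrimidine synthesis at -0.31 ± 0.16. Of 19 genes that control entry into the cycle 8 were higher (median -0.04). There Mycn, a transcription factor of growing tissue, read 50.5, 93.7 and 101.8 with leptin, against 226.5 and 149.9 (-1.03 ± 0.31, limma adjusted p = 0.882), and Wee1, which restrains Cdk1, was at -0.38 ± 0.21. Of 21 p53 and checkpoint genes 11 were higher (median 0.01), with Phlda3 at -0.23 ± 0.13 and Perp at 0.31 ± 0.20.

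On 5 arrays marker sums of 4 cell types did not overlap between groups, and those of the other types overlapped. Groups did not overlap for 19.6% of all tested probe sets, and 48.3% of all tested genes were higher with leptin. Of 7 tested erythroid markers 5 were lower with leptin. Past the adjusted threshold in limma were 3 of them, against 5 of all 9365 genes. The erythroid list summed to 6254 to 7847 with leptin, against 13715 to 16550 for saline replicates 2 and 3. Fibroblast markers were higher in 6 of 7, with sums of 24953 to 25836, against 18639 to 20710. Type II markers were lower in 5 of 7, with sums of 98976 to 111444, against 112888 to 112924, and club markers in 5 of 5, with 80346 to 90593, against 92285 to 92956. These 4 sums did not overlap between groups. Type I and endothelial sums overlapped, at 51064 to 58205, against 56574 to 57093, and 23052 to 25263, against 22464 to 23258. Sums overlapped for B cell markers (5 of 6 higher; 1504 to 2035, against 1315 to 1530) and T cell markers (3 of 4; 737 to 863, against 521 to 741). They also overlapped for neutrophil markers (7 of 7; 3223 to 6764, against 2736 to 5269), macrophage markers (6 of 6; 8636 to 10420, against 8211 to 9942) and thymus markers (3 of 3; 623 to 786, against 622 to 678). Cardiac muscle markers were higher in 1 of 6 and overlapped, at 15068 to 20254, against 17536 to 19495. No tested marker, each past the filter on dim probe sets, was at 0. The part of these cells in the members' values was not tested.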

How the data were processed

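Lung RNA was measured on 6 arrays, 3 a group, after a small-sample amplification per the labels' protocols. The values are linear intensity per probe set as the authors deposited them. The summarisation software is not given in the sources used here. Leaving out 2% at each end, the mean was 500.1 on every array. The arrays thus share this mean but not the spread of values. The 10th percentile was 57 on saline replicate 1, against 16.3 to 19.2 on the others. The number of arrays limits the precision.

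Symbols are the platform annotation's (20380 probe sets with 1 symbol, 691 with several, 1555 with none), and all 42 members matched RefSeq by Entrez Gene ID. Values became log2(intensity + 22), 22 being the 10th percentile, which understates changes of dim probe sets. Without 64 controls and the lowest 30%, limma 3.58.1 in R 4.3.3 (lmFit, eBayes with trend, two-sided) tested 15838 probe sets on 6 and on 5 arrays with Benjamini-Hochberg adjustment at 0.05. In gene lists the brightest tested probe set stands for a gene, and it is another one on 6 arrays than on 5 for 4 of 30 members. A 2-sample test with pooled variance served the series' rule. The fit was tested on simulated data.

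The members, lists and separate account of saline replicate 1 were chosen with earlier results of these data known. Values on every array are given for Fen1, for members at p under 0.05 on 5 arrays and for the 2 genes with the smallest p in each role, and of wider lists the 2 with the smallest p are named. Those of Pcna, Mki67, the saline arrays of Ccnb2, the brighter Mcm7, Rrm2 and Cdkn1a probe sets were picked after seeing the data. So were those of the dimmer Prim1 probe set. Deviations of same-numbered arrays correlated at r of 0.103 to 0.144 across probe sets, against -0.147 to 0.0491 for other pairs. This was the sole basis for the replicate block. The deviations were taken from each group's mean, with saline replicate 1 included, and so cancel within a group. A positive r for some pairs thus forces lower ones for others, and these values cannot tell whether replicates were paired. Alternatives changed normalization, pseudocount, filter, replicate block, variance trend, array weights, probe set choice, threshold and the arrays kept.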

Additional observations from a re-analysis of the deposited data

How the results depend on the processing

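The count of members past the adjusted threshold was 0 in every alternative run on 6 and on 5 arrays, single arrays left out included (0 to 0), except that Fen1 1436454_x_at passed a threshold of 0.10 on 5 arrays (1 probe set). With the replicate block it was 0 in both, and medians were 0.18 for replication and 0.19 for mitosis on 5 arrays and 0.02 and -0.39 on 6. On 5 arrays these medians are those without leptin replicate 1, as the block leaves that array without a partner. The block gave 6 member probe sets at an unadjusted p under 0.05 on 5 arrays, 5 of them shared with the 6 without it, and 1142 of all probe sets against 728. With the probe sets of the other fit, chosen after seeing the data, the replication median was 0.42 on 6 arrays and 0.11 on 5, and the mitosis median -0.35 and 0.14. A filter at the 50th percentile moved the replication median to 0.33 on 6 arrays and -0.02 on 5 (5 genes left), and the mitosis median to -1.04 on 6 (2 genes) and -0.28 on 5 (1 gene). Leaving out single arrays gave replication medians of -0.30 to 0.20 on 6 arrays and 0.09 to 0.23 on 5, and mitosis medians of -0.71 to 0.20 and 0 to 0.35. On 6 arrays both values of 0.20 came without saline replicate 1. Leaving out any other array there gave mitosis medians of -0.71 to -0.38. The series' rule was met by 32 probe sets on 6 arrays and 78 on 5. These became 17 and 50 with a pseudocount at the 25th percentile, 114 and 242 without a filter, 20 and 49 with a filter at the 50th percentile, and 16 to 89 and 72 to 145 with single arrays left out. Counting every tested member probe set, chosen after seeing the data, the share higher on 5 arrays was 67.9% against 64.5%.

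Single probe sets were followed for Fen1 and for members picked by the smallest p-values on 5 arrays, as described above. Their values kept their direction in 157 of 161 alternatives on 5 arrays and in 129 of 147 on 6. That choice favours a stable sign on 5 arrays, so these counts do not describe the other members. On 6 arrays Rrm1 1415878_at turned to 0.13 with quantile normalization and 0.12 with a common median, and Rrm2 1416120_at to 0.06 and 0.08, and to 0.35 with array weights. Array weights also turned Fen1 1436454_x_at to 1.24 and Fen1 1421731_a_at to -0.20, which was 0 with a pseudocount at the 25th percentile. Leaving out single arrays gave -0.36 to 0.22 for that Rrm1 probe set, -0.72 to 0.52 for that of Rrm2, -0.17 to 0.20 for Fen1 1421731_a_at and -1.90 to 1.27 for 1436454_x_at. On 5 arrays it gave -0.16 to 0.11 for Prim1, -0.39 to 0.04 for Fen1 1421731_a_at, -0.36 to 0.52 for Cdkn1a 1421679_a_at and -0.20 to 1.24 for Rrm2 1416120_at. On 6 arrays the 1.27 of Fen1 1436454_x_at came without saline replicate 1, and leaving out any other array gave -1.90 to -0.70. The cause of these ranges was not tested. Over its alternatives on 5 arrays Fen1 1436454_x_at stayed at 1.07 to 1.40, with limma adjusted p of 0.0708 to 0.388. Dim probe sets have little signal over background, and detection calls were not used here.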
